A study of Mus musculus with 3 samples.

Results

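The genes of molecular chaperones, the proteins that help other proteins fold, were examined in 3 mouse thymic leukaemias profiled by RNA sequencing. They were taken by symbol as the Hsp70 (Hspa), Hsp90, small heat shock (Hspb), Hsp60 (Hspd), Hsp10 (Hspe) and Hsp110 (Hsph) genes, the J protein genes (Dnaja, Dnajb and Dnajc), and the genes of the cytosolic chaperonin (Cct genes and Tcp1). This gave 82 of the 24437 genes with values, which were sorted by role into 6 inducible, 8 constitutive cytosolic, 8 endoplasmic reticulum (ER), 8 mitochondrial and 10 chaperonin genes. A further 5 Hsp70, 7 small heat shock and 30 J protein genes made up the remainder.

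The RNA came from thymuses of diseased C57BL/6 mice of the Mb1-CreDPB genotype, in which a Cre recombinase driven by the B cell gene mb-1 (Cd79a) removes Spi1 (PU.1) from B lineage cells of animals that lack its relative Spib throughout. All libraries shared this genotype and the leukaemic state, and neither an age nor a treatment was given in the labels. The samples titled Thy_853, Thy_854 and Thy_857 are named leukaemia 1, 2 and 3. Control samples were not analysed here, and because the labels number each thymus without saying that the mice differed, an SD (n = 3) is the spread between these libraries. There is 1 library per leukaemia, so no difference between leukaemias carries a p-value.

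Levels are FPKM, the authors' fragments of a gene scaled to its transcript length and to the size of the library, and sets of 3 values follow the order leukaemia 1, 2, 3. A gene with FPKM of at least 1 in every leukaemia is called expressed. Where medians or differences are given they are on the log2(FPKM + 1) scale, which understates differences of genes with low FPKM. The transcripts of B cells dominated the marker genes: the 10 B cell markers were all expressed and summed to 9221, 7853 and 6055 FPKM. The 11 T cell markers had a median of 3.88, 2.18 and 2.30, highest in leukaemia 1. Their sum of 219, 208 and 112 FPKM was carried in leukaemia 2 by Lck, at 77.1, 165 and 75.6 FPKM, while Cd3e, a defining T cell marker, stood at 20.1, 3.51 and 4.87 FPKM. The 8 myeloid markers summed to 329, 271 and 77.3 FPKM, the 8 erythroid markers to 144, 212 and 26.8 FPKM, and the 8 thymic epithelium markers to 5.66, 5.30 and 7.08 FPKM, with Foxn1, which defines that epithelium, listed at 0, 0.00544 and 0 FPKM. In such bulk tissue, fewer cells of a type and less RNA per cell cannot be told apart.

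Cells keep a constitutive set of chaperones for newly made proteins and add inducible ones when proteins misfold. In the cytosol, heat shock factor 1 (Hsf1) drives the inducible genes through heat shock elements, and in the ER the unfolded protein response drives ER chaperones through ER stress elements. Hsp70 proteins bind unfolded stretches, J proteins deliver clients to them and stimulate their ATPase, Hsp90 acts on signalling kinases and receptors at a late stage of folding, and the chaperonins enclose whole proteins in a ring-shaped chamber. Rapidly growing lymphoid cells are known for a high demand on all of these systems.

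Chaperone transcripts were abundant and mostly expressed. Of the 82 genes, 59 were expressed (72.0%), against 9300 of all 24437 genes (38.1%). Together they made up 1.06%, 1.33% and 1.42% of all FPKM, a mean of 1.27% ± 0.18 (SD, n = 3), lowest in leukaemia 1. Their median was 3.83, 3.86 and 3.78, beside a median of 0.10 ± 0.02 over all genes, most of which were not expressed. Among genes that reached FPKM 1 in any leukaemia the gap was smaller. There the median was 4.48, 4.63 and 4.84 for chaperone genes and 3.71, 3.68 and 3.71 for all genes. The groups lay far apart. The median of the chaperonin group was 7.21 ± 0.28, of the constitutive cytosolic group 5.91 ± 0.24, of the inducible group 5.02 ± 0.18, of the mitochondrial group 4.85 ± 0.13 and of the ER group 4.23 ± 0.11. The median was 1.96 ± 0.19 for the other J proteins, 1.26 ± 0.21 for the other Hsp70 genes and 0.08 ± 0.07 for the other small heat shock genes.

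**Figure D1:**
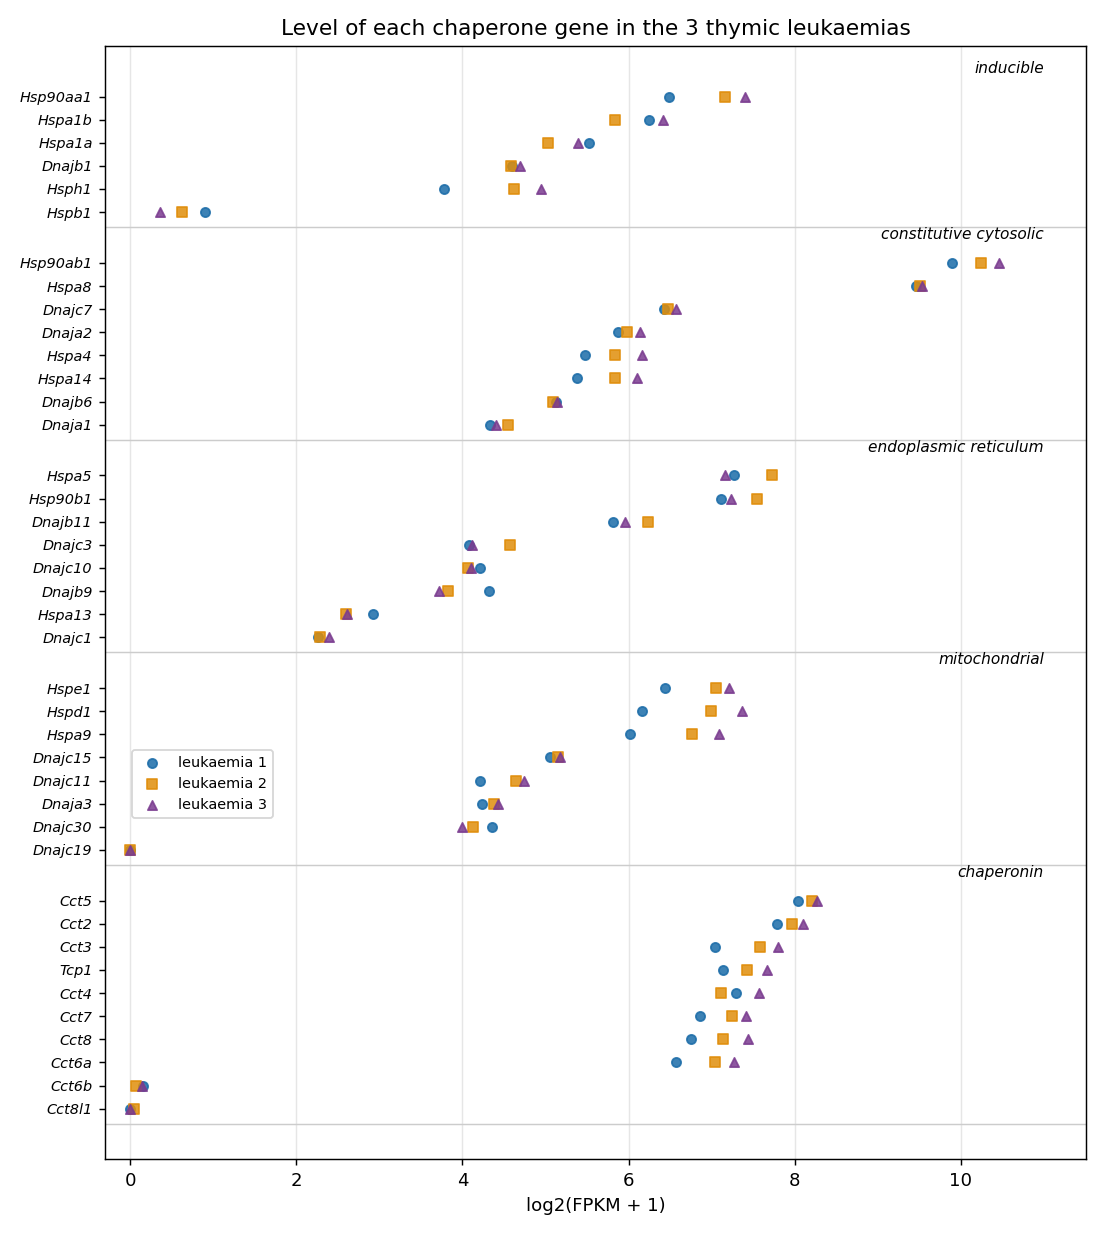
Level of each gene of the inducible, constitutive cytosolic, ER, mitochondrial and chaperonin groups, as log2(FPKM + 1) on the horizontal axis, with a circle for leukaemia 1, a square for leukaemia 2 and a triangle for leukaemia 3. Hsp90ab1 and Hspa8 lie furthest to the right, the 8 ring subunit genes of the chaperonin lie close together, and Hspb1, Dnajc19, Cct6b and Cct8l1 lie near 0.

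Of the constitutive cytosolic genes, Hsp90ab1 and Hspa8 held the highest levels of all chaperone genes, and the others lay below every ring subunit gene of the chaperonin. Hsp90ab1, the steadily expressed cytosolic Hsp90, stood at 949, 1213 and 1401 FPKM, a mean of 1188 ± 227 and rank 39 among all genes. Hspa8, the constitutive Hsp70 also called Hsc70, was listed at 701, 726 and 736 FPKM, rank 72. Its coefficient of variation over the leukaemias was 2.50%, so the values nearly coincided, whereas those of Hsp90ab1 spread by 1.48-fold with leukaemia 1 lowest. Hspa4, an Hsp110-type exchange factor that releases nucleotide from Hsp70, stood at 43.4, 56.3 and 70.4 FPKM. Hspa14, an Hsp70-like subunit of a ribosome-associated complex, stood at 40.7, 56.1 and 67.9 FPKM. Both were lowest in leukaemia 1 and highest in leukaemia 3.

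The J protein partners of cytosolic Hsp70 in this group were steadier than Hsp90ab1, Hspa4 and Hspa14. Only Dnajb6 among them varied less than Hspa8. Dnajc7, which has TPR repeats that also bind Hsp90, was at 85.1, 88.3 and 93.9 FPKM. Dnaja2 was at 57.4, 62.3 and 69.5 FPKM. Dnajb6, a suppressor of aggregation, was at 34.0, 33.0 and 34.1 FPKM, and Dnaja1, an abundant general partner of Hsp70, at 19.2, 22.5 and 20.2 FPKM. The highest and lowest leukaemia were 1.03-fold apart for Dnajb6 and 1.21-fold apart for Dnaja2. In the Dnajb6 upstream region lay a heat shock element of 3 units (letters GAANNTTCNNGAA, either strand, capitals mark the match). It is shown because only 3 of the 67 chaperone genes whose promoter could be searched held that match. Sequences are from the RefSeq promoter table of GRCm38.p6, the assembly that mm10 names.
Dnajb6 site, chr5:29735843-29735872, plus strand: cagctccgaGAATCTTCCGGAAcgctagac

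Inducible genes were expressed without any heat treatment named in the labels. Hsp90aa1, the stress-inducible cytosolic Hsp90, stood at 88.6, 142 and 169 FPKM, 1.90-fold apart and lowest in leukaemia 1. Hspa1b and Hspa1a encode the same major inducible Hsp70. Hspa1b stood at 74.8, 56.0 and 84.1 FPKM, and Hspa1a at 45.0, 31.6 and 40.9 FPKM. Leukaemia 2 was the lowest for both, which no other inducible gene except Dnajb1 showed. Dnajb1, the J protein that works with inducible Hsp70, was nearly level at 23.2, 22.9 and 24.9 FPKM. Hsph1, the inducible Hsp110, stood at 12.8, 23.5 and 29.7 FPKM and spread furthest of the expressed inducible genes, by 2.33-fold. Hspb1 (Hsp25), a small heat shock protein that binds actin and unfolding clients, was near the floor at 0.862, 0.546 and 0.280 FPKM.

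The inducible share of each family was small beside its constitutive partner. Hspa1a and Hspa1b together reached 17.1%, 12.1% and 17.0% of the FPKM of Hspa8, so leukaemia 2 was the lowest of the 3. Hsp90aa1 reached 9.33%, 11.7% and 12.04% of Hsp90ab1, with leukaemia 1 the lowest. As log2 ratios these were -2.72 ± 0.29 for the Hsp70 pair and -3.19 ± 0.20 for the Hsp90 pair (SD, n = 3). The immediate early genes, a separate list outside the inducible group, respond to handling as well as to signals. Their sum of 324, 265 and 218 FPKM was in a different order of leukaemias from Hsp90aa1 and Hsph1. Their part in the levels of inducible chaperones was not tested.

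Hspa1b (chr17:34956429-34959238, mm10) and Hspa1a (chr17:34969359-34972156) are neighbours 10120 bases apart, and Hspa1l (chr17:34972703-34979228), another Hsp70 gene, lies 546 bases beyond Hspa1a. The longest open reading frames of Hspa1a and Hspa1b were identical at 99.43% of aligned columns, with 11 differing columns and a longest identical run of 638 bases. Reads within such a run cannot be told apart, so the division between the 2 genes, with Hspa1b at 1.66, 1.77 and 2.05 times Hspa1a, is uncertain, and their sum of 120, 87.5 and 125 FPKM is the firmer value. Identity was lower for Hspa1a with Hspa1l (82.72%), for Hspa1a with Hspa8 (73.93%) and for Hsp90aa1 with Hsp90ab1 (75.43%). The 250 bases before their starts were also near copies, identical at 247 of 250 positions. They are shown because both hold the same heat shock element of 2 units (GAANNTTC, in capitals), 104 to 97 bases before the start.
Hspa1a upstream, chr17:34972157-34972406, minus strand: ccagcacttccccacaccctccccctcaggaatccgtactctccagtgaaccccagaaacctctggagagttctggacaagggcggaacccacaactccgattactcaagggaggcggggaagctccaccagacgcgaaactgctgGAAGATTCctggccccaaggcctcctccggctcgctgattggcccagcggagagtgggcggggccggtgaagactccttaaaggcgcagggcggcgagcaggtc
Hspa1b upstream, chr17:34959239-34959488, minus strand: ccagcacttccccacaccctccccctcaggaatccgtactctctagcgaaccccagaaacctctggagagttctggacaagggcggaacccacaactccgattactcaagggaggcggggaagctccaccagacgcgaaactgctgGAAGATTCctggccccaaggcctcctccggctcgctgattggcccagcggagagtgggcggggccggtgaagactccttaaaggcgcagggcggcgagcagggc

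The 2-unit letters GAANNTTC, which read the same on both strands in their fixed bases, were present in the 250 bases before the start of 13 of the 67 chaperone genes with a promoter in the table (19.4%), against 7.73% of 27025 genes. By group these were 3 of 5 inducible genes (Hspa1a, Hspa1b and Hspb1), 2 of 6 constitutive cytosolic genes (Dnajb6 and Dnaja1), 2 of 5 mitochondrial genes (Hspd1 and Hspe1) and 2 of 9 chaperonin genes (Cct2 and Cct8l1). The rest were 2 of 6 other small heat shock genes and 2 of 24 other J protein genes. The letters were in 0 of 7 ER genes and 0 of 5 other Hsp70 genes. The near copies Hspa1a and Hspa1b, and the shared site of Hspd1 and Hspe1, each count as 2 genes. Hspa1a and Hspa1b held the element and were expressed, while Hspb1 held 2 of them at 0.563 ± 0.292 FPKM. A match describes the letters and not binding. These sites are shown to compare a gene with low FPKM with expressed genes that hold the same letters. The Cct2 site lies before a RefSeq start that is itself inside the Cct2 locus of the FPKM values (chr10:117050998-117063814). It is thus not upstream of that locus.
Hspb1 site, chr5:135887791-135887820, plus strand: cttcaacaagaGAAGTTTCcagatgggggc
Hspb1 site, chr5:135887811-135887840, plus strand: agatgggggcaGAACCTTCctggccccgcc
Dnaja1 site, chr4:40722333-40722362, plus strand: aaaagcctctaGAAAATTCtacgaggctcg
Cct2 site, chr10:117063399-117063428, minus strand: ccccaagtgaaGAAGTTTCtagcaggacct

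**Figure D2:**
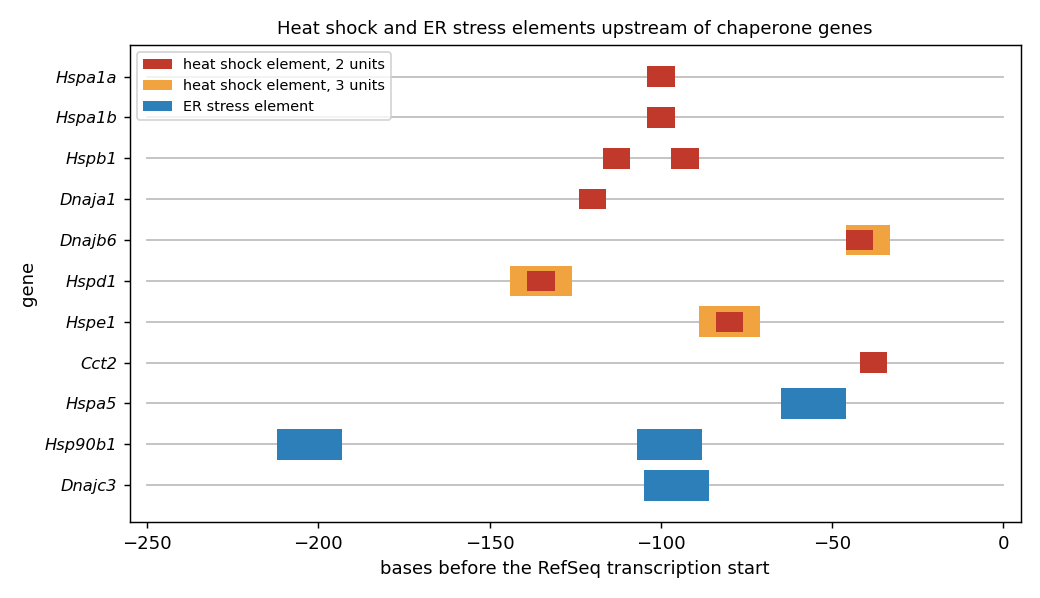
Position of heat shock elements (GAANNTTC for 2 units, GAANNTTCNNGAA for 3 units) and ER stress elements (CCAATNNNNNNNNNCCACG) in the 250 bases before the RefSeq start of 11 chaperone genes, with the distance before the start on the horizontal axis. ER stress elements lie in Hspa5, Hsp90b1 and Dnajc3 and in none of the 8 other genes drawn, and the 3-unit heat shock elements lie in Dnajb6, Hspd1 and Hspe1.

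The 8 ER genes had their leading members highest in leukaemia 2. Hspa5 (BiP), the Hsp70 of the ER lumen, stood at 154, 211 and 142 FPKM. Hsp90b1 (Grp94), the ER Hsp90, stood at 137, 186 and 149 FPKM. Dnajb11 (ERdj3), a J protein that BiP works with on secreted proteins, stood at 55.2, 73.9 and 61.1 FPKM. For all 3 the interval of leukaemia 2 lay above the others, although the gaps were under 1 on the log2 scale, at -0.46 for Hspa5 and -0.43 for Hsp90b1 in leukaemia 1 minus 2. Intervals were apart, in either direction, for most genes: 7051 of 10295 tested between leukaemias 1 and 2, and 5660 of 10047 between leukaemias 2 and 3. Dnajc3 (p58IPK), which binds clients in the ER lumen, followed with 15.8, 22.7 and 16.4 FPKM.

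The other ER members did not share that order. Dnajb9 (ERdj4), which acts in the degradation of misfolded ER proteins, stood at 19.0, 13.2 and 12.2 FPKM, highest in leukaemia 1. Dnajc10 (ERdj5), a reductase of the same route, stood at 17.6, 15.8 and 16.1 FPKM. Hspa13, a microsomal Hsp70, stood at 6.60, 5.07 and 5.11 FPKM, and Dnajc1, a membrane J protein, at 3.79, 3.89 and 4.26 FPKM. Highest in leukaemia 2 thus described 4 of the 8 ER genes, and 20.6% of the 9300 expressed genes. Against cytosolic Hspa8, Hspa5 reached 21.9%, 29.03% and 19.3% of its FPKM, a ratio chosen after the values were seen.

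The ER stress element, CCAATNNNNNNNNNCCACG on either strand, was present in the 250 bases before the start of 3 of 67 chaperone genes (4.48%), against 0.13% of 27025 genes. All 3 were ER genes, Hspa5, Hsp90b1 and Dnajc3, of the 7 ER genes with a promoter in the table. They are also among the 4 ER genes that were highest in leukaemia 2. Hsp90b1 held 2 matches, 1 of them on the opposite strand, where it reads from CGTGG to ATTGG. Of the 250 bases searched, 120 for Hspa5 and 65 for Hsp90b1 also lie in GENCODE exons. The sites are shown with the element in capitals.
Hspa5 site, chr2:34772019-34772048, plus strand: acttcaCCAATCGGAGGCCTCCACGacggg
Hsp90b1 site, chr10:86705633-86705662, minus strand: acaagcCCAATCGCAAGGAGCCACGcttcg
Hsp90b1 site, chr10:86705528-86705557, minus strand: agagtgCGTGGTGAGGCACGATTGGtgagt
Dnajc3 site, chr14:118937821-118937850, plus strand: ccacaaCCAATCAGCGCCAACCACGacccg

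The wider ER folding list was also led by leukaemia 2. Of 12 partners, 10 were highest in leukaemia 2 (83.3%, against the 20.6% of expressed genes), or 11 against 26.6% with the libraries at 1 upper quartile, and their median was 5.38, 6.17 and 5.78. Calr (calreticulin, a lectin chaperone) was the most abundant at 212, 269 and 203 FPKM, followed by Pdia3, its disulfide isomerase partner, at 183, 196 and 145 FPKM. Sil1, the exchange factor of BiP, had the lowest mean, at 10.6, 12.1 and 5.91 FPKM, although the oxidase gene Ero1l was below it in leukaemias 1 and 2, at 8.48, 8.95 and 11.2 FPKM. Sdf2l1, which keeps ER clients soluble together with Dnajb11, stood at 43.3, 95.2 and 68.8 FPKM. It was the one partner that met the criteria for a difference given below, 1.12 lower in leukaemia 1 than in leukaemia 2. In that pair 2.6% of all genes tested were higher in leukaemia 2. Among 7 regulators of the unfolded protein response, Atf4, the factor translated when eIF2 alpha is phosphorylated, was the most abundant at 136, 120.3 and 168 FPKM, with Atf6b next at 31.1, 31.4 and 28.9 FPKM. Ern1, the sensor IRE1, was the lowest of those listed above 0 throughout at 1.58, 2.98 and 2.54 FPKM. Ddit3 (CHOP), a pro-apoptotic factor of that response, stood at 20.6 FPKM in leukaemia 1 and was listed at 0 in leukaemias 2 and 3. It met the criteria as higher in leukaemia 1 than in either (5.56% of genes tested against leukaemia 2, 6.75% against leukaemia 3). An exact 0 in these tables can be a failed estimate, so no fold is given for it.

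Mitochondrial chaperones were low in leukaemia 1. Hspe1 (Hsp10), the lid of the mitochondrial chaperonin, stood at 85.6, 131 and 147 FPKM. Hspd1 (Hsp60), its ring subunit, stood at 70.3, 127 and 164 FPKM, and Hspa9 (mortalin), the Hsp70 of the matrix, at 63.7, 108 and 135 FPKM. In each of the 3 genes leukaemia 1 was lowest and leukaemia 3 highest, and the spread was 1.71-fold, 2.33-fold and 2.12-fold in that order of genes. The J proteins of this group spread less. Dnajc15, of the inner membrane, stood at 32.1, 34.6 and 35.2 FPKM. Dnajc11, linked to cristae organisation, stood at 17.5, 24.0 and 25.7 FPKM, and Dnaja3 (Tid1), the partner of mortalin, at 17.8, 19.8 and 20.6 FPKM. Dnajc30 ran the other way at 19.5, 16.5 and 14.9 FPKM. Dnajc19 was listed at 0 in every leukaemia, with upper bounds of 0.124, 0.129 and 0.118 FPKM. An exact 0 can be a failed estimate, and the annotation names 1 pseudogene of Dnajc19, so these values do not show absence.

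Hspd1 (chr1:55077834-55087932) and Hspe1 (chr1:55088148-55091317) are transcribed away from each other and their loci lie 215 bases apart. The ratio of Hspd1 to Hspe1 was 0.821, 0.964 and 1.12, lowest in leukaemia 1 and highest in leukaemia 3, with a mean log2 ratio of -0.06 ± 0.22. With the midpoint of the deposited interval in place of FPKM that mean was 0.22 ± 0.22, so which of the pair is higher is not settled. The annotation names 5 pseudogenes of Hspd1 and 6 of Hspe1, which can take up reads of either gene. The stretch before both RefSeq starts holds overlapping matches of the 3-unit heat shock element that were counted for both genes. It is shown here on both strands because the same bases lie before both starts. Capitals cover the overlapping matches on the 2 strands. All 250 bases searched for Hspe1 also lie in GENCODE exons of Hspd1 or Hspe1. Including Dnajb6 the 3-unit letters were found in 3 of 67 chaperone genes (4.48%), against 0.514% of 27025 genes.
Hspe1 site, chr1:55088053-55088082, plus strand: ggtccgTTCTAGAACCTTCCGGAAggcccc
Hspd1 site, chr1:55088053-55088082, minus strand: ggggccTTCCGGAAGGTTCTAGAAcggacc

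The partner genes of the mitochondrial chaperones were mostly in the same order as deposited, but not after rescaling. Of 7 partners, 6 were lowest in leukaemia 1 and highest in leukaemia 3 as deposited (28.9% of expressed genes). With the libraries at 1 upper quartile 3 were (21.4% of expressed genes). None met the criteria below in any pair. Trap1, the mitochondrial Hsp90, was the most abundant at 43.4, 62.1 and 67.8 FPKM. Timm44, which docks mortalin at the import channel, had the next highest mean, at 41.9, 38.2 and 45.6 FPKM, although Lonp1, a matrix protease, was above it in leukaemias 2 and 3, at 32.6, 42.6 and 49.3 FPKM. The lowest was Grpel2, a nucleotide exchange factor of mortalin, at 4.73, 5.10 and 5.36 FPKM.

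The cytosolic chaperonin, called CCT or TRiC, folds actin and tubulin in a double ring of 8 different subunits. All 8 subunit genes were expressed, between 94.2 FPKM (Cct6a in leukaemia 1) and 308 FPKM (Cct5 in leukaemia 3). Cct5 led at 261, 295 and 308 FPKM, then Cct2 at 219, 249 and 274 FPKM. Cct3 stood at 131, 189.8 and 221 FPKM, and Tcp1, which encodes the alpha subunit, at 139, 171 and 202 FPKM. The means of Cct5 and Cct2 were 288 ± 24.1 and 247 ± 27.7 FPKM. Their ranges over the leukaemias overlapped, although Cct5 was the higher of these neighbours in each. Cct4 stood at 155, 138 and 189 FPKM, and Cct7 at 115, 150.1 and 169.6 FPKM. Cct8 stood at 106, 139 and 172 FPKM, and Cct6a at 94.2, 130.2 and 154 FPKM. The highest subunit gene was 2.77, 2.27 and 2.002 times the lowest, so the subunit genes were nearest to equal in leukaemia 3.

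Leukaemia 1 was the lowest and leukaemia 3 the highest for 7 of the 8 subunit genes, with Cct4, lowest in leukaemia 2, as the exception. Over all 9300 expressed genes that order held for 28.9%. With the 3 libraries rescaled to 1 upper quartile it held for 6 of the 8 (21.4% of expressed genes), since Cct5 then was higher in leukaemia 2 than in leukaemia 3. No subunit gene was as much as 1 apart in any pair. The widest gap was that of Cct3, at -0.75 for leukaemia 1 minus 3. Of the 2 Cct genes outside the common ring, Cct6b, a subunit form of the testis, was at 0.110, 0.0520 and 0.104 FPKM. Cct8l1 was listed at 0, 0.0284 and 0 FPKM. Prefoldin hands new actin and tubulin to the ring, and its 6 genes were all expressed with a median of 6.26 ± 0.06. Pfdn5 was the highest at 345, 251 and 236 FPKM, Pfdn6 next at 111, 136 and 150.02 FPKM, and Pfdn4 the lowest at 18.3, 24.8 and 26.8 FPKM. None of the 6 met the criteria below.

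**Figure D3:**
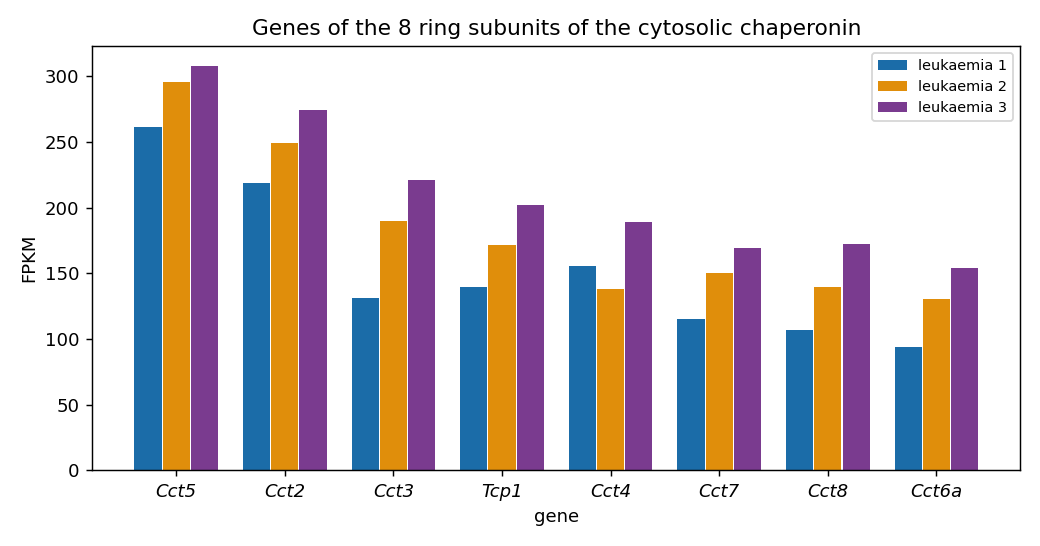
FPKM of the genes of the 8 ring subunits of the cytosolic chaperonin, 1 bar for each leukaemia from a baseline of 0, with 1 library behind each bar and no error bar. In deposited FPKM, before any rescaling that turns Cct5, the bars of leukaemia 3 are the tallest for every subunit, and those of leukaemia 1 the shortest for all but Cct4.

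The remaining genes of the Hsp70 family were low. Hspa2, an Hsp70 best known from male germ cells, stood at 4.39, 8.57 and 8.76 FPKM, and Hspa4l, an Hsp110 relative, at 6.92, 5.54 and 7.39 FPKM. Hspa1l, which neighbours Hspa1a, stood at 1.24, 1.06 and 1.75 FPKM. Hspa12b, a distant relative known from endothelium, was the lowest at 0.0762, 0.128 and 0.134 FPKM, and its relative Hspa12a stood at 1.44, 0.874 and 0.145 FPKM. Of the other small heat shock genes, Hspb11, a component of cilia transport, stood at 10.02, 13.6 and 11.2 FPKM. Hspb6 (Hsp20), known from muscle, was level at 4.48, 4.61 and 4.47 FPKM. Hspb9, known from testis, stood at 0.574, 0.349 and 0.516 FPKM. Hspb2 and Hspb3 were listed at 0 in all 3 leukaemias. Only Hspb11 and Hspb6 of the 7 were expressed.

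Among the 30 other J proteins, 18 were expressed. The most abundant were nuclear or ribosomal. Dnajc9, a co-chaperone of histones, stood at 116, 134 and 142 FPKM. Dnajc8, found with spliceosomes, stood at 98.8, 109 and 118 FPKM, and Dnajc2, which sits with Hspa14 at the ribosome, at 42.8, 57.8 and 59.3 FPKM. All 3 were lowest in leukaemia 1 and highest in leukaemia 3 as deposited, but with the libraries rescaled to 1 upper quartile Dnajc9 and Dnajc2 were higher in leukaemia 2 than in leukaemia 3. Dnajb8, Dnajc22, Dnajc5b and Dnajc5g were listed at 0 in all 3 leukaemias, and Dnajb3 was listed at 0 in leukaemias 1 and 3 and at 0.0204 FPKM in leukaemia 2.

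**Figure D4:**
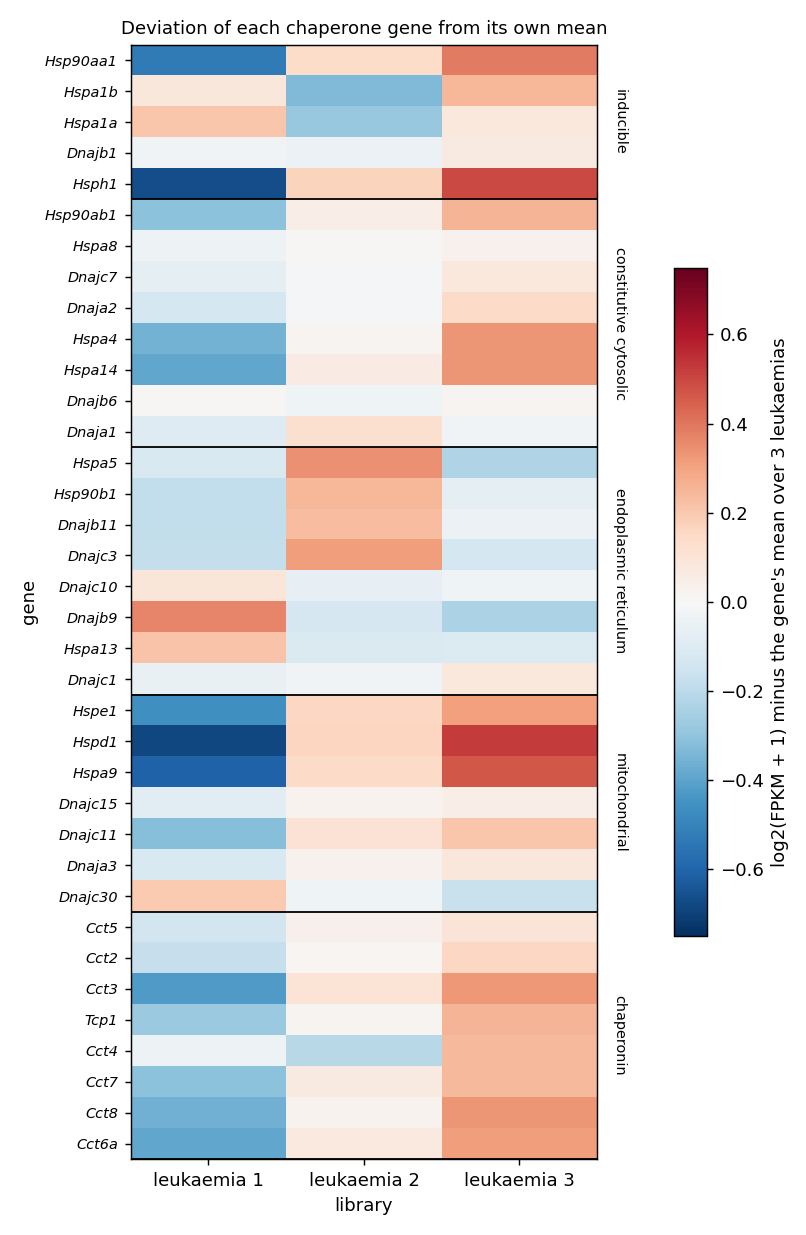
Each expressed gene of the 5 main groups as its deviation in log2(FPKM + 1) from its own mean over the 3 leukaemias, with 1 column per library and the colour scale in log2 units. The chaperonin and mitochondrial genes are mostly blue (below their mean) in leukaemia 1 and red (above it) in leukaemia 3, and Hspa5, Hsp90b1, Dnajb11 and Dnajc3 are red in leukaemia 2.

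The 3 leukaemias were next compared in pairs. A gene was taken as different where its log2(FPKM + 1) values lay 1 or more apart, the higher FPKM reached 1, and the deposited 95% intervals did not overlap. Between leukaemias 1 and 2, of 62 chaperone genes tested, 0 were higher in leukaemia 1 (5.56% of 10295 genes) and 0 higher in leukaemia 2 (2.6%). With a 1.5-fold difference in place of 1 log2 unit, 0 were higher in leukaemia 1 (12.7% of all genes) and 7, or 11.3%, in leukaemia 2 (8.33% of all genes), namely Dnajb2, Hsp90aa1, Hspa2, Hspa9, Hspd1, Hspe1 and Hsph1. Dnajb2, which lies outside the groups named in full, stood at 2.0, 3.77 and 2.38 FPKM.

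Between leukaemias 1 and 3, 3 of 62 chaperone genes were higher in leukaemia 3 (3.22% of 10265 genes) and 3 were higher in leukaemia 1 (6.75%). The genes higher in leukaemia 3 were Hspd1, by 1.21 on the log2 scale, Hsph1, by 1.16, and Hspa9, by 1.07. All 3 are inducible or mitochondrial, and their intervals in leukaemia 1 lay below those in both other leukaemias. Intervals were apart, in either direction, for 7373 of 10265 genes tested between leukaemias 1 and 3, and 7051 of 10295 between leukaemias 1 and 2. The difference of Hspa9 became -0.97 for leukaemia 1 minus 3 with the libraries at 1 upper quartile, which ends its call, while Hspd1 and Hsph1 kept theirs. Higher in leukaemia 1 were Dnajc12, a co-chaperone of the aromatic amino acid hydroxylases, by 1.47, Dnajb5, a cytosolic J protein, by 1.17, and Hspa12a, by 1.09.

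Between leukaemias 2 and 3, 2 of 60 chaperone genes were higher in leukaemia 2 (2.96% of 10047 genes) and 0 were higher in leukaemia 3 (1.72%). The 2 were again Dnajc12 and Dnajb5. Dnajb5 stood at 7.96, 7.88 and 2.97 FPKM, and Dnajc12 at 2.26, 2.25 and 0.181 FPKM, so that leukaemias 1 and 2 were level and leukaemia 3 was low for both genes. Dnajc12 thus had the widest spread of the called members, 12.5-fold, at low FPKM. The share of chaperone genes called stayed near that of all genes in these pairs, at 4.84% in either direction between leukaemias 1 and 3 and 3.33% higher in leukaemia 2 than in leukaemia 3. The myeloid and erythroid marker sums were also lowest in leukaemia 3, where 3 of 6 myeloid and 4 of 5 erythroid markers tested met the criteria as lower than in leukaemia 2, while the T cell median was lower in both leukaemias 2 and 3 than in leukaemia 1. The part of such cells in the values of Dnajb5, Dnajc12 and Hspa12a was not tested.

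**Figure D5:**
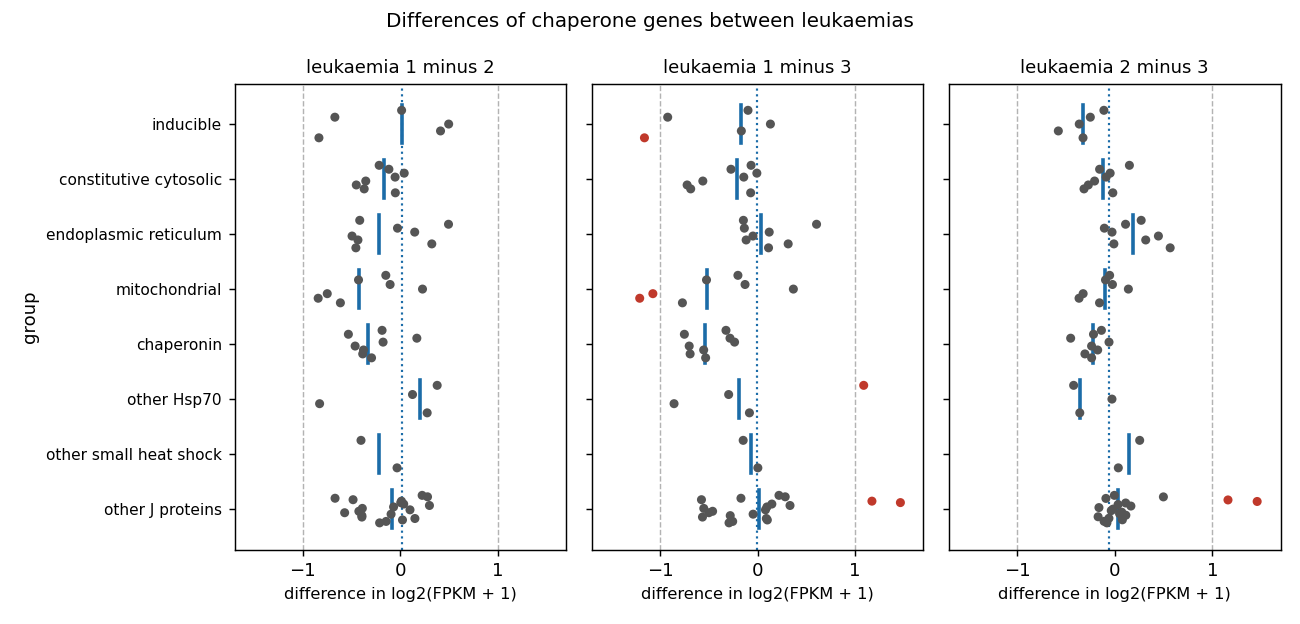
Difference in log2(FPKM + 1) of each chaperone gene that reached FPKM 1 in either library of the pair, by group, for leukaemia 1 minus 2, 1 minus 3 and 2 minus 3. Red points met the criteria for a difference, the blue bar is the median of the group, the dotted line the median of all genes tested and the dashed lines mark -1 and 1. The mitochondrial and chaperonin medians lie below 0 in leukaemia 1 minus 3, at -0.52 and -0.54, and the ER median lies at 0.03.

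The order of the leukaemias was shared more widely than the calls. Of the 59 expressed chaperone genes, 29 (49.2%) were lowest in leukaemia 1 and highest in leukaemia 3, against 28.9% of all expressed genes. By group that order was held by 7 of 8 chaperonin, 6 of 7 mitochondrial, 6 of 8 constitutive cytosolic, 2 of 5 inducible and 1 of 8 ER genes. Both shares depended on the scaling: with the libraries at 1 upper quartile they fell to 21 of 59 chaperone genes and to 21.4% of all expressed genes. The chaperone genes still had the larger share. The rescaling moved the median log2 ratio of leukaemia 1 to 3 over all genes by 0.105, and 14 chaperone genes changed sign between leukaemias 2 and 3. Under that scaling 6 chaperonin, 4 mitochondrial and 4 constitutive cytosolic genes kept the order, and Hspa8, Dnaja1, Dnajb6, Dnajb1, Dnajc3, Dnajc24 and Hspa4l changed sign between leukaemias 1 and 3. Without leukaemia 1, 41 of the 59 genes (69.5%) were lower in leukaemia 2 than in leukaemia 3, against 60.3% of expressed genes, but at 1 upper quartile 27 (45.8%) were, against 45.9%. The chaperonin genes lower in leukaemia 2 than in leukaemia 3 were 8 of 8 as deposited and 7 of 8 at 1 upper quartile, where Cct5 changed sign.

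Genes of the cell cycle were in the same order as the chaperonin. All 18 proliferation genes were lowest in leukaemia 1 and 16 of them highest in leukaemia 3, under either scaling. Their median was 5.92, 6.44 and 6.97, and 6 of the 18 met the criteria as higher in leukaemia 3 than in leukaemia 1 (3.22% of all genes tested) as deposited, but 0 at 1 upper quartile, where those 6 differed by -0.90 to -0.99. The myeloid sum was lowest in leukaemia 3, and the T cell median was highest in leukaemia 1 and lowest in leukaemia 2. Whether the growth state or the mixture of cells takes part in the order of the chaperone genes was not tested.

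Of the regulators of the cytosolic system, Hsf1, the factor that drives the inducible genes, stood at 19.5, 20.97 and 24.5 FPKM, and Hsbp1, which binds heat shock factors, at 63.4, 54.2 and 56.01 FPKM. Hsf3 was listed at 0 in every leukaemia, and none of the 6 genes of this list met the criteria in any pair. Among 22 co-chaperones, 21 were expressed. Of these, 12 were lowest in leukaemia 1 and highest in leukaemia 3 as deposited, against 28.9% of expressed genes. At 1 upper quartile 10 were, against 21.4%. St13 (Hip), which steadies the ADP state of Hsp70, had the highest mean, at 121, 163 and 148 FPKM, and Fkbp4, an immunophilin of Hsp90, the next, at 98.9, 137 and 181 FPKM. Bag3, an exchange factor of Hsp70 that Hsf1 induces in stressed cells, was the lowest at 0.457, 0.216 and 0.214 FPKM. Stip1 (Hop), which links Hsp70 to Hsp90, stood at 90.3, 123 and 190.2 FPKM, 1.07 apart on the log2 scale between leukaemias 1 and 3. The difference of Stip1 was -0.96 for leukaemia 1 minus 3 at 1 upper quartile, which ends its call. Bag2, an inhibitor of the ubiquitin ligase Stub1, stood at 1.65, 2.58 and 5.88 FPKM and was 1.38 higher in leukaemia 3 than in leukaemia 1. Stip1 and Bag2 were the 2 co-chaperones of 21 tested that met the criteria, both between leukaemias 1 and 3, where 3.22% of all genes were higher in leukaemia 3.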

How the data were processed

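RNA from 3 thymic leukaemias was sequenced, 1 library each. The authors deposited FPKM and the bounds of its 95% interval for each gene, per the file headers. The build mm10 and the tools Cuffdiff 2.1.1, Cufflinks, TopHat2 2.0.9 and Trim Galore 0.2.8.1 are listed in the submitters' processing notes. Settings, strandedness and fragments per library were not given in the sources used here, so the depth is unknown. The FPKM of each table summed to 430787, 415638 and 423979 after the steps below, and FPKM holds no counts, so no count test was run.

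Each table had 25020 rows. The 26 rows per table with a date as symbol were dropped, and FPKM was summed over the loci of the 286 symbols with several, which left 24437 genes. Every chaperone gene had 1 locus and status OK. Among members with FPKM of at least 1, the deposited interval reached a median of 4.17%, 3.91% and 3.76% to either side of its midpoint. FPKM exceeded its own upper bound for 26, 26 and 27 of them, Hspa8, Hsp90ab1, Hspd1, Hspa9, Hspa1a, Hspa1b, Cct2, Cct3, Cct4 and Cct6a included. These bounds reflect the estimation within a library, not the spread between mice.

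A pseudocount of 1 was added before log2. The members and lists were chosen with earlier results of these data known. The text names every gene of the 5 main groups. Of the other groups it names the 3 of highest mean FPKM, the lowest, those listed at 0 in every leukaemia and those called in a pair, and of pathway lists the 2 highest, the lowest and those called. Dnajb2, Dnajb3 and Dnajc24 were named after their values were seen. Motifs were searched in the 250 bases before each RefSeq start of GRCm38.p6. Of 86 windows of 67 members, 70 had the 30 bases after the start inside a GENCODE transcript of that gene. The promoter table held no entry for 15 members, Hsp90aa1, Hsp90ab1, Hspa8, Hspa9 and Cct4 included, so no motif was searched for them. The calling procedure was tested on simulated data. Python 3.11.15, numpy 2.4.6, pandas 2.3.3 and matplotlib 3.10.9 were used. The alternatives tried were other pseudocounts, filters, thresholds and scalings, interval midpoints, status OK only, the highest locus only, and each library left out.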

Additional observations from a re-analysis of the deposited data

How the results depend on the processing

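For the called differences of the 6 chaperone genes and of Sdf2l1, Ddit3, Bag2 and Stip1, the direction was kept under every alternative run. None of these alternatives could have turned it, so that outcome was fixed in advance. Intervals that do not overlap keep the order of their midpoints. The rescaling to 1 upper quartile moved log2 FPKM in leukaemia 1, 2 and 3 by 0.0411, 0.0243 and -0.0654. These shifts are too small to reverse a difference of 1 or more. Other pseudocounts, filters and thresholds cannot change a sign, and status OK only and the highest locus only left these values as they were. Over all alternatives, 127 values kept their call and 16 lost it, but the looser settings could not end a call. At FPKM of at least 5 the calls higher in leukaemia 1 than 3 and in leukaemia 2 than 3 each dropped to 1, which was Dnajb5. With a difference of at least 2 on the log2 scale, 0 remained higher in leukaemia 1 than 3, 0 higher in leukaemia 3 than 1 and 0 higher in leukaemia 2 than 3. At 1.5-fold, 7 chaperone genes (11.3%) were higher in leukaemia 2 than 1, against 8.33% of all genes, 11 (17.7%) higher in leukaemia 3 than 1, against 12.0%, and 4 (6.45%) higher in leukaemia 1 than 3, against 14.3%. With a pseudocount of 0.1 the group medians were 3.73 for all members, 0.57 for the other Hsp70 genes, -2.69 for the other small heat shock genes and 1.58 for the other J proteins. Over members that reached FPKM 1 in 1 or more leukaemias they were 4.65 for all, 5.31 for inducible, 5.13 for mitochondrial, 2.0 for other Hsp70, 3.06 for other small heat shock and 3.22 for other J protein genes. With interval midpoints the mitochondrial median was 4.61 and the log2 ratio of Hspd1 to Hspe1 0.22. Leaving out each leukaemia in turn moved the chaperonin median between 7.07 and 7.34, the members' share of FPKM between 1.19% and 1.37%, and the number expressed between 59 and 60. Higher or lower thresholds change the counts by construction, and for the other alternatives the cause was not tested. The comparison without leukaemia 1, the rescaled count of proliferation genes and the ratios of Hspa5 to Hspa8 and of Hspa1b to Hspa1a were chosen after seeing the data. No paired analysis was possible because there is 1 group of leukaemias and no second group that shares its replicate numbers. The depth is unknown, so values near 0 FPKM do not show absence.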
